A study of Mus musculus with 8 samples.

Results

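The Fc receptor and ITAM signaling genes described here were 9 genes chosen by symbol, of 55487 in the expression table: the Fcγ receptors Fcgr1, Fcgr2b, Fcgr3 and Fcgr4, the adaptors Fcer1g and Tyrobp, the receptors Trem2 and Trem1, and the kinase Syk. They were measured by RNA sequencing in J774A.1 cells, a mouse macrophage line grown from a tumour, so the data concern 1 cell line in culture. The comparison asked how ursodeoxycholic acid (UDCA), a secondary bile acid, changed expression in macrophages activated by lipopolysaccharide (LPS), a bacterial cell wall component. The LPS group held 4 libraries from cells given LPS at 1 μg/mL, and the LPS + UDCA group held 4 libraries from cells given LPS at 1 μg/mL together with UDCA at 1 mM. All 8 libraries came from cells collected at 24 h, all had received LPS, and cells without LPS were not analysed here.

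Fcγ receptors bind the constant part of IgG and so let macrophages take up antibody-coated particles. The activating receptors have no enzyme of their own and signal through an adaptor that carries an immunoreceptor tyrosine-based activation motif (ITAM), mainly the γ chain encoded by Fcer1g. TREM receptors use the related adaptor DAP12, encoded by Tyrobp. When Src family kinases phosphorylate the ITAM, the kinase Syk docks on it and passes the signal on, whereas the receptor encoded by Fcgr2b carries an inhibitory motif (ITIM) that recruits phosphatases.

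Levels are given as TPM, the share of a library's transcripts that come from a gene after scaling for gene length. Of the 9 genes, 8 averaged at least 1 TPM over the 8 libraries and were tested, and Trem1 did not. UDCA upregulated 1 of these 8 genes, Fcgr1, and downregulated 3, Fcgr3, Fcgr4 and Trem2, with the thresholds of a 2-fold change and a false discovery rate (FDR) of 0.05. The background over the 11796 genes tested was 8.71% called higher and 8.44% called lower by the same thresholds. At the FDR alone, 1 of the 8 genes was higher and 5 were lower, which added Tyrobp and Syk, beside 40.2% higher and 32.3% lower over all genes tested. Fcgr2b and Fcer1g did not pass. The values of the groups did not overlap for 1 higher and 5 lower genes of the 8, beside 37% and 29.9% of all genes tested. The median log2 fold change was -0.54 over the 8 genes and 0.082 over all genes tested. With 1 of 8, the share called higher was near the background.

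**Figure D1:**
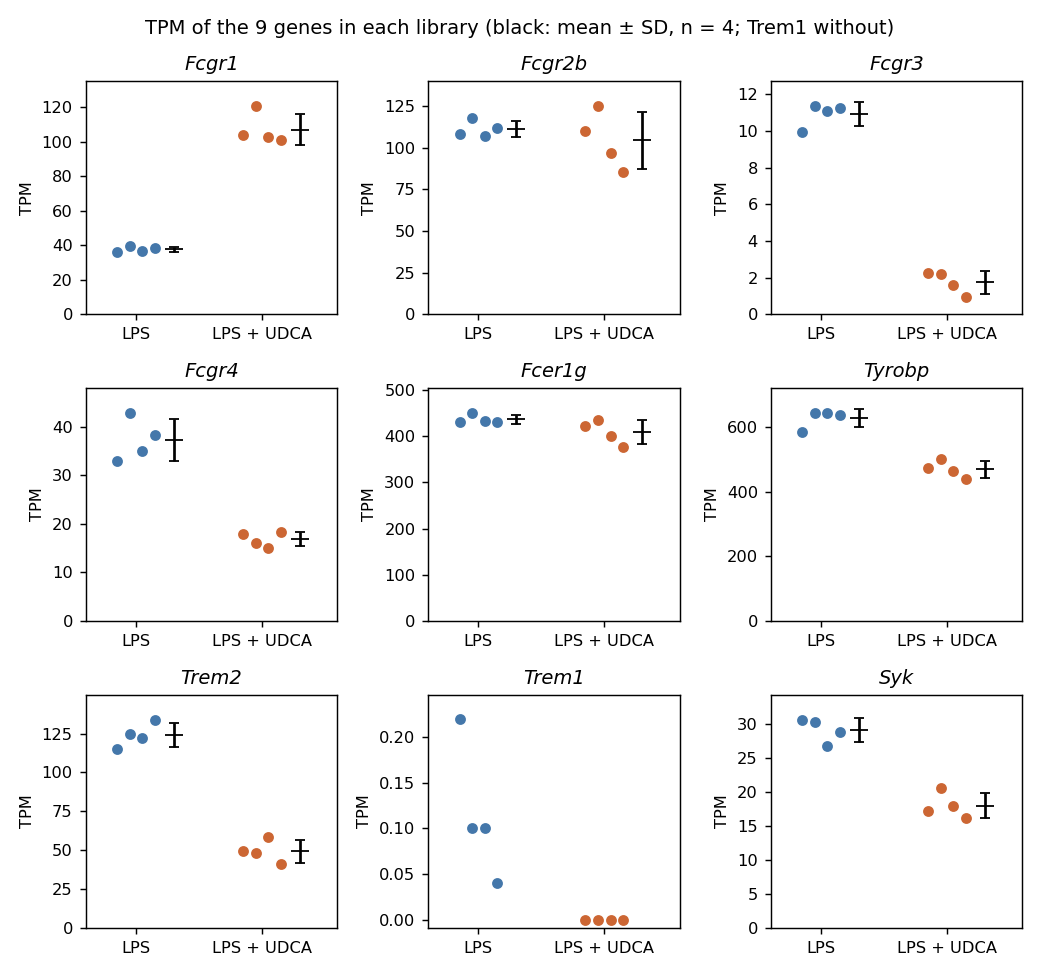
Expression of each of the 9 genes in every library, in TPM on a linear axis of its own that includes 0, for the 4 LPS and the 4 LPS + UDCA libraries. Points are libraries and bars mark the mean ± SD (n = 4), which is left out for Trem1. Fcgr1 rose from 37.7 to 107 TPM without overlap, Fcgr3, Fcgr4, Trem2, Tyrobp and Syk lay lower with LPS + UDCA without overlap, and the groups of Fcgr2b and Fcer1g overlapped.

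The sequences just before the transcription starts of the 4 genes called are shown because the direction of change differed among them. Each is the 120 bases upstream of the RefSeq start on GRCm38.p6, read 5′ to 3′ on the strand of the gene: chr3:96293970-96294089 on the minus strand for Fcgr1, chr1:171059404-171059523 on the minus strand for Fcgr3, chr1:171018806-171018925 on the plus strand for Fcgr4 and chr17:48346281-48346400 on the plus strand for Trem2. Capitals mark matches to the core of the site of PU.1, the myeloid factor encoded by Spi1 (GAGGAA, or TTCCTC when read on the other strand), and to the interferon-γ activated sequence, or GAS element (TTCNNNGAA).
Fcgr1: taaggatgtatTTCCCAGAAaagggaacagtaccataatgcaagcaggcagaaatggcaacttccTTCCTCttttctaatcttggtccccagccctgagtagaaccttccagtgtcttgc
Fcgr3: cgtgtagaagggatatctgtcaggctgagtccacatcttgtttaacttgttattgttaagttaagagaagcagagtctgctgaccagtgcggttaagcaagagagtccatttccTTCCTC
Fcgr4: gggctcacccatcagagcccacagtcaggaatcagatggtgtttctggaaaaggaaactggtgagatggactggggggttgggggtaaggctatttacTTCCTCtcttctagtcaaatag
Trem2: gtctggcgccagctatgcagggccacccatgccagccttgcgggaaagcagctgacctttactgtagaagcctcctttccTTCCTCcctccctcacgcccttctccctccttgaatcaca
The Fcgr1 sequence held both motifs, with the GAS element 109 bases and the PU.1 core 55 bases before the start. The other 3 sequences held the PU.1 core only, 6 bases before the start in Fcgr3, 22 in Fcgr4 and 40 in Trem2. Fcgr3 has another RefSeq start, and the same core lies 15 bases before that one. In windows from 250 bases before to 50 bases after the start, searched on both strands, the PU.1 core was in those of 6 of the 8 genes with a RefSeq entry (Fcgr1, Fcgr3, Fcgr4, Trem2, Trem1 and Syk). Fcgr3 and Syk had an additional window each, so these genes had more chances to match. Counted by window, the PU.1 core was in 7 of 10 and the GAS element in 2 of 10. Over all 32851 promoters, the PU.1 core was in 28.3%. The GAS element was in the windows of Fcgr1 and Trem1, directly before the PU.1 core and sharing no base with it in Trem1, and in 8.3% of all promoters. Tyrobp had no entry. These are matches of letters, and binding was not measured. Spi1 itself averaged 285 ± 11.8 TPM in the LPS group and 326 ± 19.8 TPM in the LPS + UDCA group (SD, n = 4; log2 fold change 0.19, limma adjusted p = 0.0063).

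Fcgr1 (GRCm38 chr3:96282909-96293969, minus strand) encodes the high-affinity IgG receptor. It stood at 36.33, 39.36, 36.95 and 38.21 TPM in the 4 LPS libraries and at 104.10, 120.85, 102.97 and 100.85 TPM in the 4 LPS + UDCA libraries. Each LPS + UDCA library was above each LPS library. The group levels were 37.7 ± 1.35 and 107 ± 9.20 TPM (SD, n = 4), and the log2 fold change of 1.48 (SE 0.061) had a limma adjusted p of 6.6e-08. The change was at the 97.2th percentile of all genes tested. When the 8 libraries were rearranged in all 70 ways, the exact permutation p was 0.029, the smallest 2-sided p that 4 against 4 allows, as it did for each other gene without overlap.

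Fcgr3 and Fcgr4 encode the lower-affinity activating receptors, and both were downregulated. Fcgr3 (chr1:171051174-171064935, minus strand) was at 9.97, 11.36, 11.09 and 11.27 TPM with LPS and at 2.25, 2.20, 1.62 and 0.93 TPM with LPS + UDCA. The LPS + UDCA libraries all lay far below the LPS libraries. The means were 10.9 ± 0.645 and 1.75 ± 0.617 TPM (SD, n = 4), with a log2 fold change of -2.14 (SE 0.16, limma adjusted p = 2.5e-06) on the log2(TPM + 1) scale, which understates the change of a gene this low. The ratio of the mean TPM was 0.160. Of the 31-base words in Fcgr3 transcripts, 13.4% also occur in another gene, all in Fcgr2b, so that part of the reads of the pair could have been divided between them in counting. Fcgr4 (chr1:171018920-171029761, plus strand) was at 32.92, 42.82, 35.07 and 38.36 TPM with LPS and at 17.85, 16.16, 15.09 and 18.38 TPM with LPS + UDCA. Its groups did not overlap either, and its means of 37.3 ± 4.31 and 16.9 ± 1.52 TPM (SD, n = 4) gave a log2 fold change of -1.10 (SE 0.091, limma adjusted p = 4.9e-06). In bulk RNA, fewer cells that express a gene and less of its RNA per cell cannot be told apart.

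Fcgr2b (chr1:170958617-170976547, minus strand) encodes the inhibitory Fcγ receptor. With LPS it stood at 108.09, 117.76, 106.77 and 111.86 TPM, and with LPS + UDCA at 110.24, 125.04, 97.02 and 85.44 TPM. The LPS + UDCA libraries spread more widely and covered the LPS range on both sides. Means of 111 ± 4.92 and 104 ± 17.1 TPM (SD, n = 4) gave a log2 fold change of -0.10 (SE 0.10) that did not pass (limma adjusted p = 0.39, exact permutation p = 0.49). The antisense gene Gm38204 overlaps Fcgr2b, and whether reads were counted by strand is not given in the sources used here. Because Fcgr2b and Fcgr3 share words, their TPM was also summed within each library: together they reached 122 ± 5.31 TPM in the LPS group and 106 ± 17.6 TPM in the LPS + UDCA group (SD, n = 4).

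The changes of the Fcγ receptors were therefore unequal, and the ratio of each activating receptor to Fcgr2b within a library measured this directly. The Fcgr1 to Fcgr2b ratio was 0.340 with LPS and 1.04 with LPS + UDCA, a log2 difference of 1.61 (SE 0.074). Fcgr3 moved the other way relative to Fcgr2b, from 0.0983 to 0.0164 (log2 difference -2.62, SE 0.20). Fcgr4 did so too, from 0.335 to 0.165 (log2 difference -1.04, SE 0.16). Each ratio separated the 4 LPS from the 4 LPS + UDCA libraries, with an exact permutation p of 0.029 and 0.029 after Benjamini-Hochberg adjustment over the 5 ratios computed. All 5 gave this smallest possible p, so the adjustment could not change it. Fcgr2b itself did not pass, so these ratios largely repeat the changes of the activating receptors. A linear rescaling of a library leaves these ratios as they are.

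**Figure D2:**
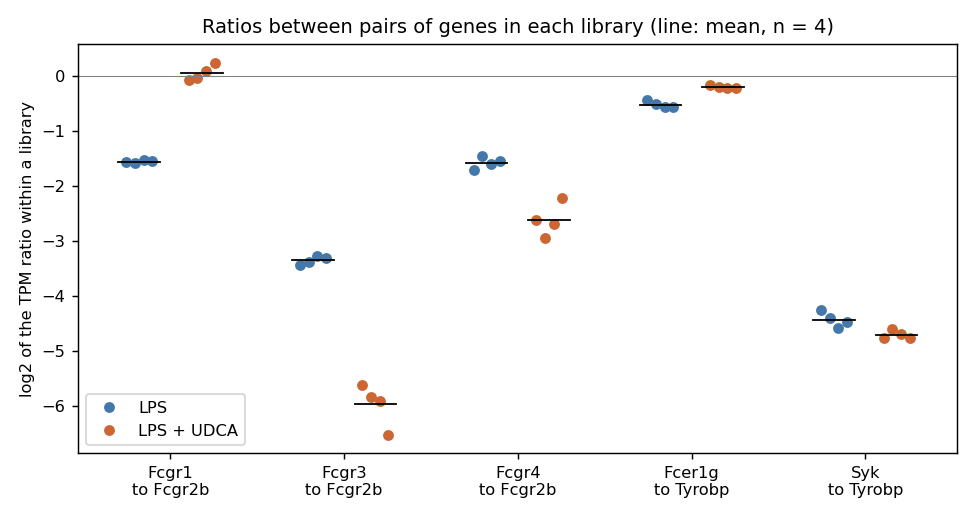
The 5 within-library TPM ratios on a log2 axis, 1 point per library, for the 4 LPS and the 4 LPS + UDCA libraries. The ratio of Fcgr1 to Fcgr2b rose from 0.340 to 1.04 and that of Fcer1g to Tyrobp from 0.695 to 0.870, while the other 3 fell, and in none of the 5 did the groups overlap.

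As a description of the same values, Fcgr1 made up 19.2% of the summed TPM of the 4 Fcγ receptors with LPS and 46.7% with LPS + UDCA. Fcgr2b made up 56.4% and 45.2%, Fcgr4 18.9% and 7.41%, and Fcgr3 5.55% and 0.748%. The sum of the 4 genes was 197 ± 10.9 TPM with LPS, where the libraries ran from 187 to 211 TPM, and 230 ± 25.6 TPM with LPS + UDCA, where they ran from 206 to 264 TPM (SD, n = 4). The summed ranges overlapped, while the makeup changed from one led by Fcgr2b to one shared by Fcgr1 and Fcgr2b.

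**Figure D3:**
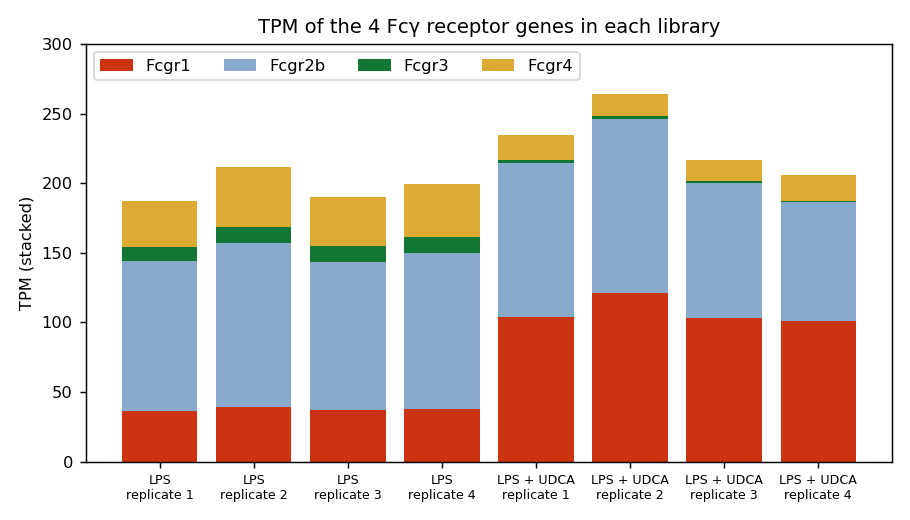
Stacked TPM of Fcgr1, Fcgr2b, Fcgr3 and Fcgr4 in each of the 8 libraries, on a linear axis from 0. The part of Fcgr1 grew from a mean of 19.2% with LPS to 46.7% with LPS + UDCA, and those of Fcgr3 and Fcgr4 shrank.

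The adaptors were the most abundant of the 9 genes. Fcer1g (chr1:171229572-171234365, minus strand) was at 429.68, 449.84, 432.37 and 430.03 TPM with LPS and at 421.16, 435.15, 399.33 and 376.98 TPM with LPS + UDCA. Its groups overlapped through the replicate 2 library of LPS + UDCA. Means of 435 ± 9.65 and 408 ± 25.5 TPM (SD, n = 4) gave a log2 fold change of -0.10 (SE 0.045) that did not pass (limma adjusted p = 0.086, exact permutation p = 0.11). Without that library it was -0.13 with a limma adjusted p of 0.025, and under quantile normalization its sign turned, at 0.027.

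Tyrobp (chr7:30413760-30417585, plus strand), the DAP12 adaptor, was at 585.04, 643.66, 643.84 and 637.49 TPM with LPS and at 471.89, 502.55, 464.59 and 438.30 TPM with LPS + UDCA. All LPS + UDCA values were below all LPS values. The decrease from 628 ± 28.5 to 469 ± 26.4 TPM (SD, n = 4) was a log2 fold change of -0.42 (SE 0.048, limma adjusted p = 4.3e-05), which passed the FDR but not the fold minimum. The Fcer1g to Tyrobp ratio rose from 0.695 to 0.870 (log2 difference 0.32, SE 0.033, exact permutation p = 0.029, adjusted 0.029), so the adaptors changed by unequal amounts.

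Trem2 and Trem1 signal through the Tyrobp product. Trem2 (chr17:48346401-48354147, plus strand), a receptor for lipids and lipoproteins, was at 115.13, 124.46, 121.91 and 133.92 TPM with LPS and at 49.74, 47.95, 58.47 and 40.90 TPM with LPS + UDCA. No LPS + UDCA library came near the LPS range. Means of 124 ± 7.78 and 49.3 ± 7.23 TPM (SD, n = 4) gave a log2 fold change of -1.32 (SE 0.097, limma adjusted p = 2.2e-06), at the 5.04th percentile of all genes tested. Trem1 (chr17:48232768-48246924, plus strand), which amplifies inflammatory responses, was listed at 0.22, 0.10, 0.10 and 0.04 TPM with LPS and at 0 in all 4 LPS + UDCA libraries. Values this low in a table kept to 2 decimals give no usable fold change. In a fit of the 23729 genes above 0 TPM in any library, Trem1 entered only through the LPS group. Its log2(TPM + 1) difference there was -0.15 (SE 0.045), which is given as a description and not as a test. A Trem1 to Trem2 ratio was not computed because of the zeros.

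Syk (chr13:52583173-52648792, plus strand), the kinase that docks on phosphorylated ITAMs, was at 30.67, 30.37, 26.86 and 28.80 TPM with LPS and at 17.28, 20.61, 17.91 and 16.23 TPM with LPS + UDCA. The groups did not overlap. Means of 29.2 ± 1.75 and 18.0 ± 1.87 TPM (SD, n = 4) gave a log2 fold change of -0.67 (SE 0.077, limma adjusted p = 4.2e-05), past the FDR but short of the fold minimum. The Syk to Tyrobp ratio fell from 0.0466 to 0.0383 (log2 difference -0.28, SE 0.078, exact permutation p = 0.029, adjusted 0.029).

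The order of levels changed below the adaptors. With LPS, Tyrobp and Fcer1g were followed by Trem2, Fcgr2b, Fcgr1, Fcgr4, Syk, Fcgr3 and Trem1. The ranges of Trem2 and Fcgr2b overlapped, although Trem2 was the higher in 4 of 4 libraries, and those of Fcgr1 and Fcgr4 overlapped with Fcgr1 the higher in 2 of 4. With LPS + UDCA, Fcgr1 and Fcgr2b came next after the adaptors and each was the higher in 2 of 4 libraries. Trem2, Syk, Fcgr4, Fcgr3 and Trem1 followed, with Syk above Fcgr4 in 2 of 4 libraries. The other neighbours in each order did not overlap.

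The wider pathway was followed in 6 gene lists. Over all genes tested, 8.71% were higher and 8.44% lower by both thresholds, and 40.2% and 32.3% at the FDR alone. Among 13 other Fc receptors, 4 were tested, of which 0 were higher and 1 lower by both limma thresholds (median log2 fold change -0.16), while at an unadjusted p under 0.05, 0 were higher and 2 lower, beside 4877 higher and 3919 lower of the 11796 genes tested. The lower gene was Fcrl1, an Fc receptor-like gene best known from B cells, which fell from 28.6 ± 1.55 to 10.3 ± 0.236 TPM (SD, n = 4; log2 fold change -1.40). Fcgrt, the neonatal Fc receptor, passed the FDR alone, at 9.79 and 6.90 TPM. The chains of the IgE receptor Fcer1a and Ms4a2 were listed at 0 in every library.

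The list of other receptors that use ITAM adaptors held 20 genes, of which 19 were found and Pira6 was not. Among them was Hcst, which encodes an adaptor without an ITAM and not a receptor. Of these, 13 were tested, Hcst included. By both thresholds 1 was higher and 5 lower, beside 8.71% and 8.44% of all genes tested. At the FDR alone 2 were higher and 10 lower, Hcst among the lower, beside 40.2% and 32.3%. The median log2 fold change was -0.81. Treml4, a TREM-like receptor, rose from 0, 0.11, 0.18 and 0.31 TPM in the LPS libraries to 6.75, 6.39, 7.98 and 8.28 TPM in those with UDCA (log2 fold change 2.86). Clec4n, which encodes the fungal receptor dectin-2, fell from 9.15 ± 1.08 to 2.75 ± 0.39 TPM (log2 fold change -1.44). Pilrb1 fell from 6.62, 3.23, 3.63 and 5.99 TPM to 0.56, 0.25, 0 and 0 TPM (log2 fold change -2.27), but 50.1% of its words occur in other genes, mainly Pilrb2, so the pair is uncertain. Several of these genes, Treml4 and Pilrb1 among them, were under 1 TPM in one group and entered the test through the other. With only genes at 1 TPM or more in every library, 0 were higher and 2 lower by both limma thresholds. Cd300ld, chosen after its values were seen, was at 79.2 ± 6.53 and 159 ± 6.94 TPM, just under the fold minimum on the log2(TPM + 1) scale (all SD, n = 4).

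The list of ITIM receptors and inhibitory phosphatases, which largely oppose ITAM signals, had 20 of 21 genes tested. It also held the adaptor genes Dok1, Dok2 and Dok3. By both thresholds 1 was higher and 6 lower, Dok2 and Dok3 among the lower, beside 8.71% and 8.44% of all genes tested. At the FDR alone 7 were higher and 13 lower, beside 40.2% and 32.3%. The median log2 fold change was -0.44. Clec4a2, an inhibitory lectin receptor, rose from 2.59 ± 0.466 to 8.79 ± 2.10 TPM (log2 fold change 1.43). Pilra fell from 13.7 ± 1.69 to 2.88 ± 1.00 TPM (log2 fold change -1.95), with 28.5% of its words shared, and Siglece, a receptor for sialic acid, from 5.13 ± 0.615 to 1.41 ± 0.188 TPM (log2 fold change -1.34). Chosen after their values were seen, Inpp5d, the lipid phosphatase recruited by the Fcgr2b product, fell from 68.1 ± 9.37 to 31.6 ± 4.11 TPM (log2 fold change -1.08), and the phosphatase gene Ptpn6 was at 296 ± 5.71 and 198 ± 17.8 TPM (log2 fold change -0.58, limma adjusted p = 1.7e-05; all SD, n = 4). Sirpa, chosen in the same way from the 7 higher genes, was at 145 ± 12.7 and 242 ± 19.7 TPM (SD, n = 4). Both activating and inhibitory arms thus held genes that changed in each direction.

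Src family kinases and their regulators, which phosphorylate ITAMs and control that step, had 14 of 16 genes tested. By both limma thresholds 1 was higher and 0 lower, beside 8.71% and 8.44% of all genes tested. At the FDR alone 6 were higher and 6 lower, beside 40.2% and 32.3%, and the counts were the same at an unadjusted p under 0.05. The median log2 fold change was 0.042. The kinase gene Src rose from 6.38 ± 0.534 to 14.8 ± 0.614 TPM (log2 fold change 1.10). Lyn, a kinase of the family chosen after its values were seen, was at 85.4 ± 4.35 and 58.0 ± 3.65 TPM. Csk, which restrains the family and was chosen in the same way, was at 94.2 ± 4.8 and 47.2 ± 3.13 TPM (all SD, n = 4). Ptpn12, chosen in the same way from the 6 higher genes, was at 25.7 ± 2.82 and 40.3 ± 3.60 TPM (SD, n = 4). Lyn and Csk passed the FDR but not the fold minimum, and with median-of-ratios scaling 2 genes of the list were called lower.

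Effectors downstream of Syk had 39 of 42 genes tested. By both limma thresholds 0 were higher and 2 lower, beside 8.71% and 8.44% of all genes tested. At the FDR alone 14 were higher and 19 lower, beside 40.2% and 32.3%. At an unadjusted p under 0.05, 15 were higher, beside 4877 of the 11796 genes tested. The median log2 fold change was -0.21. Rasgrp3, an exchange factor for Ras proteins, fell from 20.4 ± 2.51 to 5.22 ± 1.51 TPM (log2 fold change -1.80), and the scaffold gene Themis2 from 16.9 ± 0.494 to 6.14 ± 1.02 TPM (log2 fold change -1.34). The phospholipase gene Plcg2 and the exchange factor gene Vav1, chosen after their values were seen, were at 45.2 ± 2.40 and 24.1 ± 2.67 TPM and at 148 ± 5.22 and 97.0 ± 8.34 TPM, which passed the FDR alone (all SD, n = 4). Tec, chosen in the same way from the 14 higher genes, was at 16.7 ± 1.18 and 26.4 ± 0.956 TPM (SD, n = 4).

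**Figure D4:**
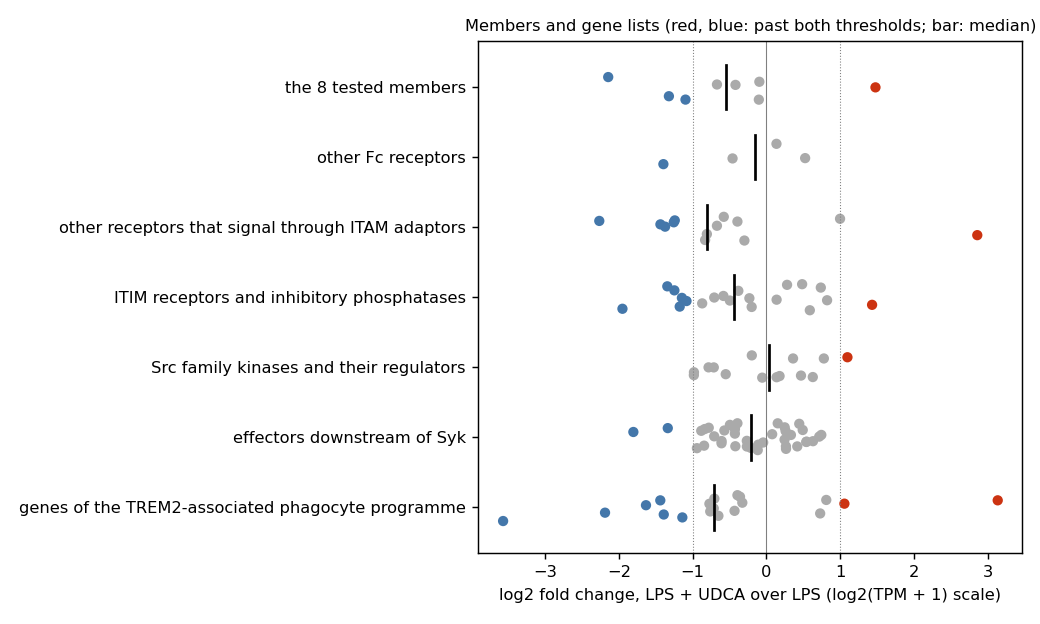
Log2 fold change (LPS + UDCA over LPS, on log2(TPM + 1)) of each tested gene of the 8 tested members and the 6 lists, 1 point per gene, with the median of each set marked. The medians ran from -0.81 in the receptors with ITAM adaptors to 0.042 in the Src family list, against 0.082 over all genes tested.

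Genes that accompany Trem2 in lipid-laden phagocytes had 19 of 24 tested. By both thresholds 2 were higher and 6 lower, beside 8.71% and 8.44% of all genes tested. At the FDR alone 4 were higher and 15 lower, beside 40.2% and 32.3%. The median log2 fold change was -0.71. With only genes at 1 TPM or more in every library, 1 was higher and 5 lower by both thresholds. Fabp5, a fatty acid binding protein gene, fell from 656 ± 32.0 to 54.4 ± 4.75 TPM (log2 fold change -3.57). The lysozyme gene Lyz2 fell from 1988 ± 93.8 to 436 ± 20 TPM (log2 fold change -2.19), with 32.8% of its words shared with Lyz1. Csf1, a growth factor for macrophages, rose from 0.67 ± 0.188 to 13.6 ± 0.716 TPM (log2 fold change 3.14) and entered the test through the LPS + UDCA group, and Hif1a, which encodes the hypoxia-inducible transcription factor, rose from 18.1 ± 2.35 to 38.8 ± 3.89 TPM (log2 fold change 1.06; all SD, n = 4).

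On the chromosomes, 34 tested genes lay within 100 kb of a member. By both thresholds 6 of them were higher and 2 lower, beside 8.71% and 8.44% of all genes tested. These 8 genes lay beside Fcgr1, Trem1 and Tyrobp. All 6 higher genes averaged under 1 TPM with LPS and entered the test only through the LPS + UDCA group. Their means therefore had to be higher in that group, though not necessarily by the fold minimum. Trem3, one of the lower genes, entered only through the LPS group. The counts are given as a description. Of the 11 neighbours of Fcgr1, 5 were higher: H3c13, Gm20633, Gm20632, Gm47311 and Gm47313, all under 5 TPM on average in each group, and the last pair had identical values in every library and were listed at 0 in all LPS libraries and in LPS + UDCA replicate 1. Beside Trem1, Trem3 at 853 bases fell from 2.43 ± 0.699 to 0.42 ± 0.152 TPM (log2 fold change -1.26), while Treml4 at 17371 bases rose, as given above. Beside Tyrobp, Nfkbid, which encodes a regulator of NF-κB, at 4147 bases fell from 24.1 ± 1.76 to 6.20 ± 0.578 TPM (log2 fold change -1.80). The adaptor gene Hcst, at 127 bases from Tyrobp and chosen after its values were seen, was at 20.4 ± 2 and 11.3 ± 3.04 TPM (log2 fold change -0.83, limma adjusted p = 0.0012; all SD, n = 4).

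Markers of the cell type and of other cells moved too. Of 10 macrophage markers, 8 averaged 1 TPM or more, and Mertk and Cd163 were at 0 in all 8 libraries. Their summed level ran from 4186 to 4419 TPM with LPS and from 1953 to 2193 TPM with LPS + UDCA, with Adgre1 higher (46.6 ± 3.97 to 114 ± 8.24 TPM) and Itgam lower (176 ± 11.3 to 22.7 ± 2.50 TPM; SD, n = 4). Other cells that carry Fc receptors were checked by their own markers. Of 6 neutrophil markers, S100a8 and S100a9 reached 1 TPM, their list summed to 18.6 to 25.4 TPM with LPS and 2.72 to 9.03 TPM with LPS + UDCA, and Ly6g, Elane and Camp were at 0. Of 5 B cell markers, Cd79b alone reached 1 TPM, and the list summed to 3.10 to 4.50 and 0.35 to 1.6 TPM. Of 5 mast cell or basophil markers, Hdc alone reached 1 TPM, the list summed to 5.69 to 10.6 and 6.27 to 7.33 TPM, and Fcer1a, Ms4a2, Cpa3 and Mcpt4 were at 0. The T cell, NK cell and dendritic cell lists had 0 markers at 1 TPM and summed to at most 1.55 TPM in any library. The part of the changed markers in the results was not tested.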

How the data were processed

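RNA from J774A.1 cells was sequenced in 8 libraries, 4 per group, grouped by the sample labels. The authors deposited 1 table of TPM per gene, kept to 2 decimals. The submitters' processing notes name mm10, GRCm38 and Bowtie 0.12.2, and the counting program is not given in the sources used here. TPM keeps no depth, so depth is unknown and no counting error was computed. Library sums ran from 973190 to 977485 TPM with LPS and from 958918 to 962737 TPM with LPS + UDCA, without overlap. Of 28 pairs of libraries, 0 were identical. Nothing states that the libraries came from separate cultures, so p-values measure the spread between these samples, which may be technical.

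The 11796 genes that averaged 1 TPM or more were tested on log2(TPM + 1) in limma 3.58.1 (R 4.3.3), using lmFit and then eBayes with trend, and p-values were adjusted over all of them by the Benjamini-Hochberg method. A call needed a 2-fold change or more and an FDR below 0.05, as in the study. Single values were compared by a 2-sided exact permutation test over 70 arrangements. The fit was tested on simulated data. Members and lists were chosen with earlier results of these data known. Beside the 9 members, the rule for named genes took up to 2 genes with the highest and 2 with the lowest log2 fold change past both thresholds in each list, neighbours within 100 kb past both thresholds, and markers of other cell types at 1 TPM or more. Positions and shared 31-base words are from GENCODE M21 (55141 of 55487 identifiers matched), and promoters are from RefSeq on GRCm38.p6. Alternatives covered scaling, the filter, the pseudocount, the variance trend, the replicate block, the neighbour window and leaving out each library. Python 3.11.15, pandas 2.3.3, numpy 2.4.6, scipy 1.17.1 and matplotlib 3.10.9 were used. Some items are not reported here.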

Additional observations from a re-analysis of the deposited data

Results flagged for a closer look

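Of 27 sets of 4 libraries examined, 3 held a library whose gap to its nearest neighbour exceeded Dixon's 95% limit as a share of the range of the set, and chance flags about 1 in 20. Fcgr1 was at 120.85 TPM in LPS + UDCA replicate 2, above the other LPS + UDCA libraries. Fcer1g was at 449.84 TPM in LPS replicate 2, above the other LPS libraries. Tyrobp was at 585.04 TPM in LPS replicate 1, below the other LPS libraries. Fcgr1 and Tyrobp passed the same thresholds without the library concerned.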

How the results depend on the processing

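The call of 1 member higher by both thresholds held in every alternative, and 3 lower held in all but the filter for 1 TPM in every library, where Fcgr3 was not tested and 2 were lower. Fcer1g passed the FDR with median-of-ratios scaling (-0.20, limma adjusted p = 0.0059), with the median of all genes taken off (-0.18, adjusted p = 0.0063) and without LPS + UDCA replicate 2 (-0.13, adjusted p = 0.025), and it reversed with quantile normalization (0.027, adjusted p = 0.64). The range of its adjusted p over the alternatives was 0.0059 to 0.64. Median-of-ratios scaling moved the median log2 fold change of all genes from 0.082 to -0.018 and the calls over all genes from 1028 higher and 995 lower to 807 and 1168. A pseudocount of 0.1 gave 1444 and 1232. Receptors with ITAM adaptors called higher numbered 2 with TPM rescaled to 1000000, quantile normalization or a pseudocount of 0.1 and 0 with 1 TPM in every library (1 to 2 when single libraries were left out), and those called lower numbered 2 with 1 TPM in every library. Src family genes called lower numbered 2 with median-of-ratios scaling or the median taken off and 1 with quantile normalization or a pseudocount of 0.1 (0 to 1 when single libraries were left out). Genes of the Trem2-associated list called higher numbered 1 with median-of-ratios scaling, with the median taken off, with 1 TPM in every library and without LPS + UDCA replicate 4 (1 to 2 when single libraries were left out). Those called lower numbered 5 with 1 TPM in every library. Within 250 kb, 5 neighbours were lower.

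The labels do not say what the replicate numbers shared by the groups mark. Deviations of same-numbered libraries correlated at -0.035 to 0.15 (mean 0.088) and those of other pairs at -0.14 to 0.16 (mean -0.029), and 5 of 8 libraries correlated best with their own number. This is a hint of pairing from the data, not the design, and since not every pair was above 0.1 the fit without the block was kept. With the replicate block, 1034 genes were higher and 1000 lower, and the members called were again 1 higher and 3 lower. The ratios kept their direction in every alternative, but 4 against 3 libraries cannot give p under 0.057 and sign flips of 4 pairs cannot give p under 0.125. The depth of the libraries is unknown, which limits what can be said of genes near 0 such as Trem1.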
